A study of Mus musculus with 6 samples.

Results

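The SOCS family and Usp18 encode inhibitors of cytokine, growth factor or interferon signaling, some of them made in response to it. Their transcripts were followed in 4T1 cells, a mouse mammary carcinoma line, after treatment with P3FI-90, which the study used as a selective inhibitor of the histone demethylase KDM3B. The members were the 9 rows of the read-count table whose symbols are Socs1, Socs2, Socs3, Socs4, Socs5, Socs6, Socs7, Cish and Usp18, out of 22105 rows with a gene name. All 9 passed the filter on low counts and were among the 12288 genes tested. Cells received DMSO, the vehicle, or P3FI-90 at 10 µM, each for 24 h. The groups hold 3 sequenced libraries each. The groups stand for a single cultured line, at a single dose and time. The labels number the libraries as replicates without saying whether they came from separate cultures, so p-values measure the spread between these libraries, which may be technical.

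Type I interferon binds the receptor subunits IFNAR1 and IFNAR2, whose kinases TYK2 and JAK1 phosphorylate STAT proteins, and other cytokine receptors use the same kinases and STATs. SOCS proteins carry an SH2 domain, which binds phosphorylated tyrosines, and a SOCS box, which recruits elongins and cullin 5 into a ubiquitin ligase. SOCS1 and SOCS3 also block JAK activity directly, CIS (the product of Cish) and SOCS2 act on receptors that use STAT5, and SOCS4 to SOCS7 have long amino-terminal regions and are mostly linked to growth factor receptors. USP18 removes the ubiquitin-like protein ISG15 from its targets and, apart from that, binds IFNAR2 and holds back type I interferon signaling.

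Each library held between 31327094 and 37395732 counts on genes with a name. The values given are normalized counts, for which TMM factors from edgeR bring all libraries to a common effective size. Of the 8 epithelial markers listed for a check of the cell type, Krt5 was at 0 in every library and the other 7 were present, and their summed normalized counts were 109941 to 114943 in DMSO and 55651 to 58129 after P3FI-90, with all 7 lower at an adjusted p under 0.05. The summed leukocyte markers were at 919 to 966 in DMSO and 593 to 742 after P3FI-90, with Adgre1 at 0 in all libraries. Of the 4 tested, 1 was higher, 1 lower and 2 neither. The sum came mostly from Cd14, which went from a mean of 508 to 215, and Cd68, from 382 to 330 and not called. Csf1r went the other way, from 41.5 to 121 normalized counts. The fibroblast markers summed to 1411 to 1489 and 1001 to 1096, mostly from Pdgfra, and the endothelial markers to at most 13.3 and 33.7. The part of these differences in the results for SOCS genes and Usp18 was not tested. In bulk RNA, fewer cells that express a gene and less RNA of it per cell cannot be told apart.

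P3FI-90 treatment raised Usp18 9.71-fold and raised Socs7 and Socs4 by 2.79-fold and 2.19-fold, while Socs3, Cish and Socs1 were lower by 44.5%, 42.9% and 32.2%. Socs2 rose by 1.20-fold, and Socs5 and Socs6 were lower by 12.3% and 15.5%. The quasi-likelihood test of edgeR called 4 of the 9 genes higher and 5 lower at an adjusted p under 0.05, where 39.9% of all genes tested were higher and 39.4% lower. In TMM-normalized counts, the P3FI-90 libraries did not overlap the DMSO libraries for all 9 genes, as was the case for 81.2% of the genes tested. Overlap under scaling by total counts was not counted. Most genes changed in these libraries, so a change past the test does not by itself set a gene apart. An adjusted p under 0.05 together with a log2 fold change over 1 was found for 3 of the 9 genes and for 12.7% of the genes tested. The median log2 fold change of the 9 genes was −0.19, beside 0.01 over all genes tested. Scaling by total counts in place of TMM raised the median of all genes to 0.23 and left 2 members lower, Socs3 and Cish. For a single gene, the smallest p that an exact two-sided permutation of 3 against 3 libraries allows is 0.1.

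**Figure D1:**
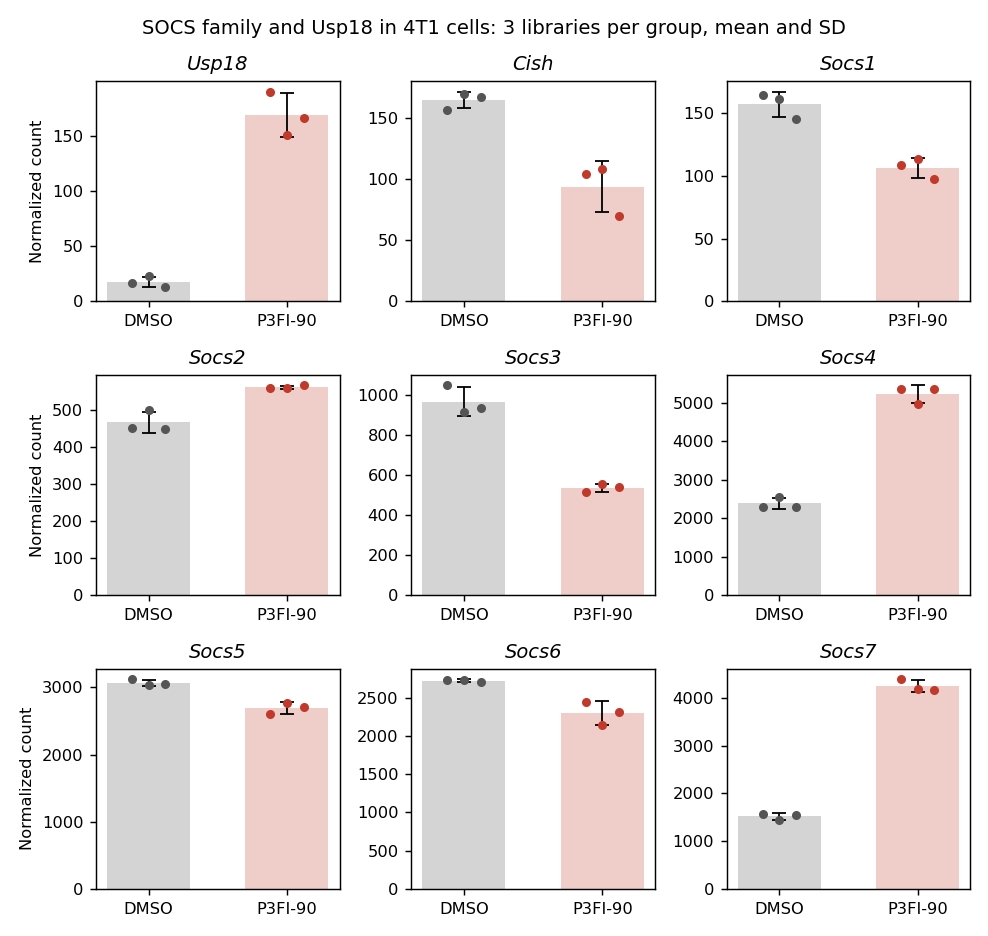
Normalized counts (vertical axes, each from 0) of the 9 genes in the 3 DMSO and 3 P3FI-90 libraries; points are libraries, bars are means and error bars are SD. Under the TMM scaling drawn, Usp18, Socs4, Socs7 and Socs2 lie higher in all P3FI-90 libraries and the other 5 genes lower. Under scaling by total counts, Socs5 and Socs6 had log2 fold changes of 0.03 and −0.03. Socs1, Socs5 and Socs6 did not pass the test there.

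Usp18 (ENSMUSG00000030107) had 16.2, 22.9 and 13.3 normalized counts in the DMSO libraries and 189.9, 150.2 and 165.6 after P3FI-90. The lowest treated library was thus above the highest control library by more than 100 normalized counts. The means were 17.4 ± 4.93 and 169 ± 20.1 (SD, n = 3), which gives a change on the log2 scale of 3.28 (SE 0.27, 95% interval 2.71 to 3.85, adjusted p = 4.19e-08, edgeR quasi-likelihood). The DMSO mean rests on 48 reads over 3 libraries and the P3FI-90 mean on 539, and the log2 fold change ran between 3.11 and 3.50 when any 1 library was removed. By log2 fold change Usp18 stood at place 229 among the 12288 genes tested. None of its 50-base transcript windows occurs in another gene of GENCODE M21. Its exons share 124 bases with a noncoding gene on the opposite strand, and reads of such a pair cannot be told apart unless strand was used in counting.

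The other ubiquitin-specific proteases, taken by name after the values had been seen, changed in either direction. Of the 45 tested besides Usp18, 22 were higher and 14 lower, and their median change was 0.15 on the log2 scale. Among all 46, Usp18 had the second highest log2 fold change. Usp13, a deubiquitinase named after its values were seen, lay above it at 5.29 (SE 0.78), from a mean of 0.68 normalized counts in DMSO to 32.7 after P3FI-90, and Usp37 followed Usp18 at 1.40.

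Genes of the ISG15 system in which USP18 acts changed less. Of the 7 genes for ISG15 and its conjugating enzymes, 4 were higher, 1 was lower and 2 were neither, and the counts were the same under scaling by total counts. Isg15 itself had a log2 fold change of 1.28 (95% interval 0.97 to 1.60), and Herc6, the main ISG15 ligase of the mouse, of 0.96. The values of the ligase genes Arih1 and Trim25 were 0.54 and 0.26, and Ube2e1, a conjugating enzyme, fell by 0.71 on the log2 scale. Uba7, the activating enzyme, and Ube2l6, the main conjugating enzyme, had values of 0.09 (95% interval −0.27 to 0.45) and −0.14 (−0.41 to 0.13) and did not pass the test. The interval of Isg15 lies below that of Usp18, and the difference between these genes was not tested.

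Cish, Socs3 and Socs1, which are classical transcriptional targets of activated STATs, had lower counts after treatment. Their promoter sequences are shown with that of Socs4, which rose, and were searched for the letters of STAT and interferon elements. Of the 9 genes, 4 had an entry in the RefSeq promoter table (GRCm38.p6), which gives 250 bases before and 50 from the start of the gene, and Socs2, Socs5, Socs6, Socs7 and Usp18 did not. Capitals mark matches to TTCNNNGAA, the letters of a STAT-binding element (GAS), or to GAAANNGAA, the core letters of an interferon-stimulated response element (ISRE), searched on both strands. Each line reads 5′ to 3′ along the strand of the gene.
Cish (chr9:107296409-107296708, plus strand): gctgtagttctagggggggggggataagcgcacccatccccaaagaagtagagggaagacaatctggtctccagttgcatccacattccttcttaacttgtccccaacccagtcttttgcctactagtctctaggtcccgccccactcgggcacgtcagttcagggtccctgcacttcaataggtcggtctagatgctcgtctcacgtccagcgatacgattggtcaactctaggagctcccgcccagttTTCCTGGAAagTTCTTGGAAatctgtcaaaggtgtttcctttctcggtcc
Socs3 (chr11:117969317-117969616, minus strand): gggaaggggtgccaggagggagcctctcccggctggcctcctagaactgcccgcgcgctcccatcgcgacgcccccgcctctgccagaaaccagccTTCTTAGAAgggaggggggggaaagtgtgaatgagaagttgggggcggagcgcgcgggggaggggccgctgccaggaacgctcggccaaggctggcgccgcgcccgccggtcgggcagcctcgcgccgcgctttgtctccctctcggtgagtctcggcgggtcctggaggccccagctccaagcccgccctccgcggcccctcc
Socs1 (chr16:10785487-10785786, minus strand): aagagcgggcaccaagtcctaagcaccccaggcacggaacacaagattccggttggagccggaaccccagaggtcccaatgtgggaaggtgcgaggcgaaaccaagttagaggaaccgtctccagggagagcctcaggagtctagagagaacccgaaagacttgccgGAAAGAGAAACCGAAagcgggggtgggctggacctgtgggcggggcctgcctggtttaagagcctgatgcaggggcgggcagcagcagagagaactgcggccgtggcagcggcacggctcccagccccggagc
Socs4 (chr14:47276670-47276969, plus strand): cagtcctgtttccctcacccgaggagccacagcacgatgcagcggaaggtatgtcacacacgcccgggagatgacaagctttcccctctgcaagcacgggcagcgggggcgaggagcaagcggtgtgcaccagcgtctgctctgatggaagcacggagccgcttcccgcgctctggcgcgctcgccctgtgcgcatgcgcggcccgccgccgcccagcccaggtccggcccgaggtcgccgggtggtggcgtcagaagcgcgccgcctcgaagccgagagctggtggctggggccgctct

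The Cish sequence held 2 matches to the GAS letters, which begin at the start of the gene and 11 bases after it. In Socs3 a single GAS match began 154 bases before the start. In Socs1 a pair of ISRE matches that overlap each other began 83 and 77 bases before the start, and the Socs4 sequence held neither set of letters. GAS letters occur in 8.3% and ISRE letters in 8.56% of the 32851 promoters of 300 bases in that table. These matches describe the letters in the window and were not tested as binding sites or against the direction of change.

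Cish (ENSMUSG00000032578) had 157, 169.8 and 167 normalized counts in the DMSO libraries and 104, 108 and 69.6 after P3FI-90. The third P3FI-90 library was the lowest by a wide margin, and the groups did not overlap. The means were 165 ± 6.89 and 93.8 ± 21.1 (SD, n = 3), which gives a change on the log2 scale of −0.81 (SE 0.20, 95% interval −1.25 to −0.37, adjusted p = 0.00227, edgeR), and without that library the value was −0.64. Its exons overlap an antisense gene and a pseudogene on the opposite strand over 7.46% and 4.07% of their length.

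Socs3 (ENSMUSG00000053113), the inhibitor that binds gp130 and other receptors of the interleukin-6 class, had 1050.4, 915 and 938 normalized counts in DMSO and 516, 555 and 543 after P3FI-90. All treated libraries lay far below all controls, and the means were 968 ± 72.4 and 538 ± 20.1 (SD, n = 3). The log2 fold change was −0.85 (SE 0.08, 95% interval −1.02 to −0.68, adjusted p = 1.89e-07, edgeR quasi-likelihood), the largest fall of the 9 genes, and its interval overlaps that of Cish. Under scaling by total counts it was −0.63.

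Socs1 (ENSMUSG00000038037), the inhibitor best known for limiting interferon signaling, had 165, 161 and 146 normalized counts in DMSO and 109, 113 and 98.0 after P3FI-90. The groups did not overlap, with means of 157 ± 10.1 and 107 ± 7.85 (SD, n = 3). Its log2 fold change was −0.56 (SE 0.18, 95% interval −0.94 to −0.18, adjusted p = 0.00976, edgeR), and under scaling by total counts it was −0.35 with an adjusted p of 0.0862, so the call depends on the scaling. Socs1 thus went the opposite way from Usp18 in every library, although both restrain interferon receptors.

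Socs2 (ENSMUSG00000020027), which limits growth hormone signaling, had 451, 499 and 447 normalized counts in DMSO and 557, 557 and 565 after P3FI-90. The treated libraries lay close together and above the controls, with means of 466 ± 28.6 and 559.8 ± 4.70 (SD, n = 3). The log2 fold change was 0.27 (SE 0.09, 95% interval 0.08 to 0.46, adjusted p = 0.0123, edgeR). It stayed called with each library left out in turn, with an adjusted p of up to 0.0469. Cish and Socs2, which act on the same class of receptors, therefore moved in opposite directions, and their intervals do not overlap. As many as 4.53% of the transcript windows of Socs2 also occur in other genes, mostly the pseudogene Gm9847, which was not among the genes tested.

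Socs7 and Socs4 showed the largest rises of the SOCS family. Socs7 (ENSMUSG00000038485), whose product binds insulin receptor substrates and other adaptors, had 1568, 1438 and 1551 normalized counts in DMSO and 4389, 4174 and 4168 after P3FI-90. Each treated library exceeded each control by over 2-fold, and the means were 1519 ± 70.6 and 4244 ± 126 (SD, n = 3). The log2 fold change was 1.48 (SE 0.05, 95% interval 1.37 to 1.59, adjusted p = 3.62e-12, edgeR).

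Socs4 (ENSMUSG00000048379), linked to degradation of the epidermal growth factor receptor, had 2294, 2548 and 2299 normalized counts in DMSO and 5352, 4952 and 5351 after P3FI-90. The means were 2381 ± 145 and 5218 ± 231 (SD, n = 3), with no overlap. The log2 fold change was 1.13 (SE 0.05, 95% interval 1.02 to 1.24, adjusted p = 6.76e-11, edgeR), and its interval lies below that of Socs7. Leaving out each library in turn kept Socs7 between 1.44 and 1.50 and Socs4 between 1.10 and 1.18.

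Socs5 (ENSMUSG00000037104), the closest relative of Socs4 in the family, did not rise with it. Its normalized counts were 3123, 3039.8 and 3047 in DMSO and 2602, 2768 and 2709 after P3FI-90. The means were 3070.1 ± 45.9 and 2693 ± 83.8 (SD, n = 3), which gives a change on the log2 scale of −0.19 (SE 0.04, 95% interval −0.29 to −0.09, adjusted p = 0.00144, edgeR), and the sign turned under scaling by total counts, to 0.03 with an adjusted p of 0.616.

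Socs6 (ENSMUSG00000056153), the closest relative of Socs7, had 2733, 2733 and 2699 normalized counts in DMSO and 2447, 2143 and 2309 after P3FI-90. The means were 2722 ± 19.4 and 2299.5 ± 152 (SD, n = 3). The log2 fold change was −0.24 (SE 0.05, 95% interval −0.36 to −0.13, adjusted p = 8.50e-04, edgeR), and −0.03 under scaling by total counts, where the adjusted p was 0.629. In each of these related pairs, 1 gene more than doubled while the other changed by less than 1.2-fold. Of the transcript windows of Socs6, 6.14% also occur in other genes, mostly the pseudogene Gm9449, which was not tested.

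**Figure D2:**
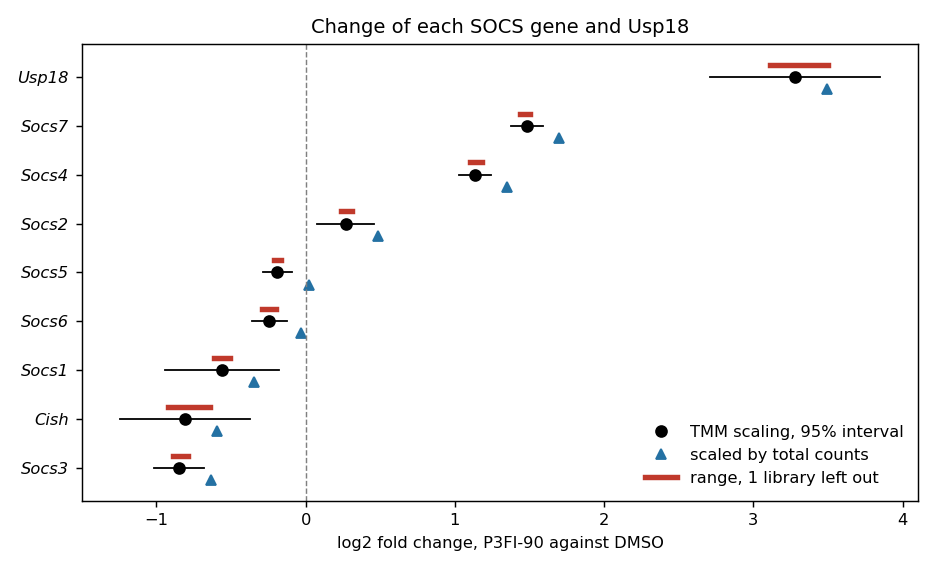
Log2 fold change of P3FI-90 against DMSO (horizontal axis) for each gene; black points and lines are the edgeR estimate under TMM scaling with its 95% interval, blue triangles the estimate under scaling by total counts, and red bars the range when 1 library was left out. Usp18, Socs7 and Socs4 lie above 1 in every setting drawn, while Socs5 crosses 0 under total counts.

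To compare genes with each other, normalized counts were divided by the summed exon length of each gene and are given as reads per kilobase of exon, scaled for library size as in RPKM. In DMSO, Socs5 had the highest level of the 9 genes at 13.6 ± 0.20 RPKM (SD, n = 3). Socs4 at 9.87 ± 0.60 and Socs3 at 9.55 ± 0.71 came next, and their libraries overlapped. Socs6 at 6.84 ± 0.05 and Socs7 at 5.96 ± 0.28 followed, with no overlap between them. Socs1 and Socs2 stood at 1.54 ± 0.10 and 1.39 ± 0.09 and overlapped each other, and Cish at 0.73 ± 0.03 and Usp18 at 0.18 ± 0.05 were the lowest.

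After P3FI-90 the order of these levels changed. Socs4 at 21.6 ± 0.96 and Socs7 at 16.7 ± 0.49 RPKM (SD, n = 3) passed Socs5, whose treated libraries lay between 11.6 and 12.3. Socs6 at 5.78 ± 0.38 and Socs3 at 5.30 ± 0.20 overlapped each other. Usp18 left the last place and stood at 1.72 ± 0.21, where it overlapped Socs2 at 1.67 ± 0.01. By the longest transcript it was at 2.71 ± 0.32 and below Socs2 at 3.76 ± 0.03, and by coding length at 4.35 ± 0.52 and far below Socs2 at 26.6 ± 0.22. Socs1 at 1.05 ± 0.08 and Cish at 0.42 ± 0.09 were the lowest. With the longest coding sequence or the longest transcript as the length, Socs5 was again the highest in DMSO, Socs4 and Socs7 were again the highest after P3FI-90, and Usp18 was again the lowest in DMSO and above Cish after P3FI-90. The places of Socs1, Socs2, Socs3, Socs4 and Socs6 in DMSO, and of Socs1, Socs2, Socs3 and Usp18 after P3FI-90, depended on the length used.

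The share of each gene in the summed per-length level of the 8 SOCS family genes does not depend on how libraries are scaled. Socs4 and Socs7 together made up 31.1%, 32.8% and 32.1% of it in the DMSO libraries and 60.3%, 58.3% and 59.6% after P3FI-90. Socs5 and Socs6 together went from 41.4% ± 0.32 to 27.5% ± 0.42 (SD, n = 3). Socs3, Socs1 and Cish together went from 23.9% ± 1.13 to 10.5% ± 0.57, most of it from Socs3 (19.3% ± 1.17 and 8.23% ± 0.43). No treated library overlapped a control library in any of these shares. The share of Socs2 went from 2.81% ± 0.18 to 2.60% ± 0.05. By the longest transcript it was 4.87% ± 0.31 and 4.85% ± 0.08, and the libraries overlapped. A share can fall because other genes of the family rise, and the level of Socs2 itself went from 1.39 to 1.67 RPKM. The summed level of the family was 49.5 ± 0.87 RPKM in DMSO and 64.5 ± 1.06 after P3FI-90. Counted by coding length, Socs4 and Socs7 held 30.0% in DMSO and 55.6% after P3FI-90.

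**Figure D3:**
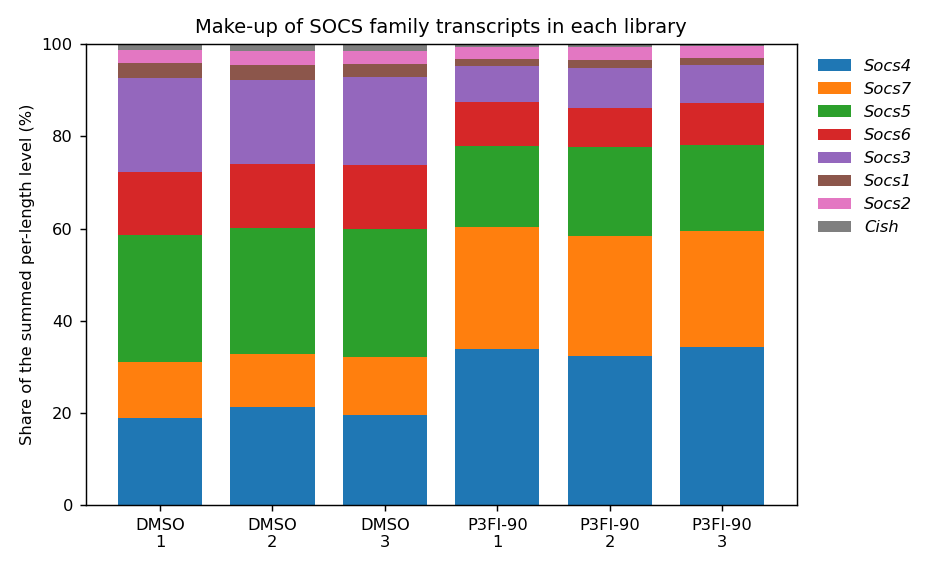
Share of each SOCS family gene in the summed per-length level of the family (vertical axis, percent) in each of the 6 libraries. Socs4 and Socs7, at the bottom of the bars, take 31.1% to 32.8% in DMSO and 58.3% to 60.3% after P3FI-90.

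The genes whose profile over the 6 libraries was most like that of a member were sought among the 12288 tested genes by the smallest distance between centred log2 CPM values, for the 3 members with a log2 fold change over 1. They were Kdm5a, Tfrc and Gm7072 for Socs4, at distances of 0.06 to 0.08. For Socs7 they included Sdcbp2 and Slc25a44, at 0.07 and 0.08, and for Usp18 they were Arrdc4, Zbtb7c and Ndst4, at 0.35 to 0.43. The log2 fold changes of the neighbours of Usp18 were 3.18, 3.49 and 3.25. Values near that of the member follow from the choice by smallest distance, since the libraries differ mainly by group. None of these neighbours of Usp18 is on the lists used here.

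The receptor subunits, kinases and STATs on which these inhibitors act changed in both directions. Of the 17 tested, 6 were higher and 8 lower (9 and 5 under scaling by total counts), and the median change was 0.01 on the log2 scale. In this and the following lists, the sign of a negative value smaller in size than the shift of the all-gene median between the scalings depends on the scaling. Irf9, Stat2 and Ifngr2 had log2 fold changes of 1.03, 0.91 and 0.81, whereas Stat6, Jak2 and Jak1 had values of −0.81, −0.51 and −0.29. Jak3, the kinase of the common gamma chain, went from 841 ± 76.6 to 419 ± 3.50 normalized counts (SD, n = 3). Ifnar2, the receptor subunit that USP18 binds, went from 1931 ± 36.4 to 1469 ± 63.5 normalized counts (SD, n = 3). Its log2 fold change was −0.39, and it was chosen after its values were seen. Stat5a, upstream of Cish, was at −0.26 and Stat3, upstream of Socs3, at −0.12, while Stat5b did not pass the test at 0.01 (95% interval −0.08 to 0.11), all 3 again named after their values were seen.

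Inhibitors of other kinds also went both ways, with 8 higher and 7 lower of 16 tested (8 and 3 under scaling by total counts) and a median of 0.18. The higher ones with the smallest p were Stam, Cbl, Stam2 and Cblb, which take part in the sorting or ubiquitination of receptors, with log2 fold changes of 0.99, 0.93, 0.97 and 1.42. The lower ones were Pdlim2 (−1.47), a ubiquitin ligase for STAT proteins, the phosphatase gene Ptpn6 (−1.28), the adaptor gene Sh2b3 (−0.38) and Pias1 (−0.29).

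Partners of the SOCS box, listed together with the related ligase genes Cul2 and Rbx1, changed little. Of 10 tested ligase components, 3 were higher and 6 lower (4 and 3 under scaling by total counts), with a median of −0.21. Arih2, a ligase that works together with cullin 5, was the exception with a log2 fold change of 1.11 (SE 0.04), and the core subunits Rnf7 and Cul5 had values of 0.41 and 0.26. The lower ones with the smallest p were Dcun1d1, Nedd8, Rbx1 and Cul2, between −0.45 and −0.25. Of the other genes whose products carry a SOCS box, 17 of 26 were tested, 7 higher and 7 lower (8 and 5 under scaling by total counts), with a median of 0.11. Asb1, Spsb1, Asb7 and Spsb3 rose, by 1.61, 0.99, 0.91 and 0.63 on the log2 scale. Asb2 went from 192 ± 29.6 to 7.33 ± 5.07 normalized counts (SD, n = 3), or −4.71 on the log2 scale, and Spsb2, Spsb4 and Asb13 had values of −1.19, −1.10 and −0.56.

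Other targets of STAT3 and STAT5 did not move as a group with Socs3, Socs1 and Cish. Of 19 tested, 11 were lower and 5 higher (7 and 8 under scaling by total counts), with a median of −0.22. Ccnd1, Lcn2, Mcl1 and Bcl2l1 fell, with log2 fold changes of −1.76, −1.68, −0.83 and −0.64. Gadd45g, Bcl6, Vegfa and Pim1 rose, with log2 fold changes of 4.49, 1.74, 1.69 and 0.55.

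Among cytokines that signal through JAKs, 10 of 29 were tested and 12 were at 0 in every library. Csf2, Il11 and Il15 were higher, with log2 fold changes of 4.60, 2.20 and 0.95, and Csf3, Tslp, Lif and Ctf1 were lower, at −1.89, −2.94, −0.47 and −0.51 (4 higher and 3 lower under scaling by total counts). The genes Lif and Il11 encode ligands of the gp130 receptors that SOCS3 restrains, and they moved in opposite directions. Of 28 receptors and receptor substrates, 17 were tested, 9 higher and 4 lower (10 and 1 under scaling by total counts), with a median of 0.33. Il6st, which encodes gp130, rose from 4017 ± 106 to 7799 ± 261 normalized counts (SD, n = 3), or by 0.96 on the log2 scale, while Socs3 fell. Igf1r, Osmr and Irs1 had log2 fold changes of 1.08, 0.96 and 0.99, and Il12rb1, Il13ra1, Il4ra and Irs2 had values of −1.59, −0.26, −0.33 and −0.15.

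**Figure D4:**
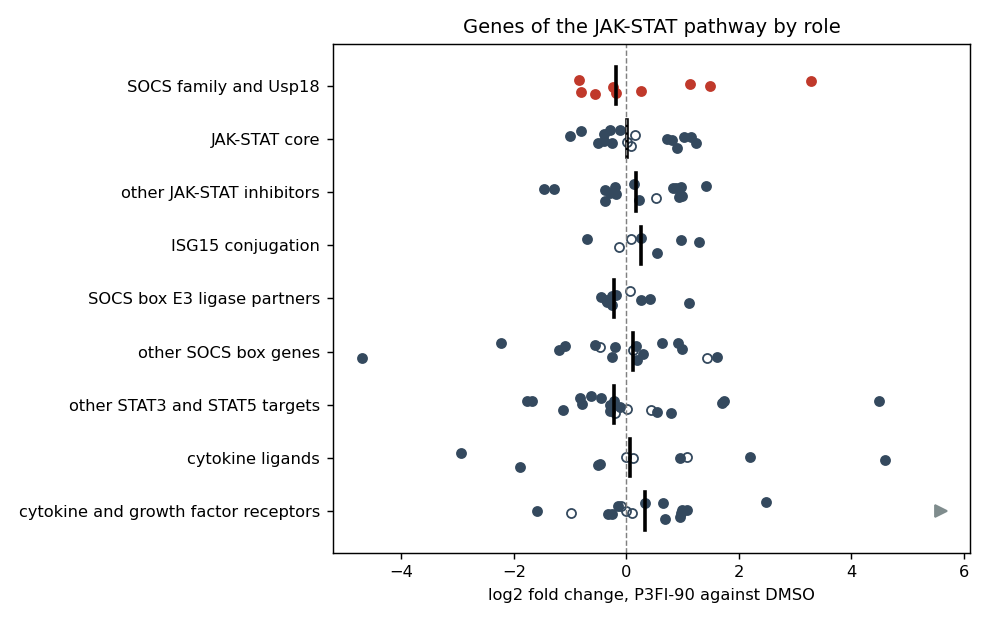
Log2 fold change (horizontal axis) of each tested gene by list, with the 9 members in red; filled points have an adjusted p under 0.05 in edgeR, open points do not, and vertical ticks are medians. The grey arrow marks Lepr, at 0 counts in all DMSO libraries, whose position on the axis is not a value; all lists hold genes on either side of 0.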

How the data were processed

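RNA-seq libraries of 4T1 cells (3 per group) were analysed from the authors' deposited read counts, which are whole numbers without normalization. The submitters' processing notes name CASAVA, HISAT2, StringTie and GRCm39. Versions, annotation and strandedness are not given in the sources used here, and the study's methods name limma for the comparison. Of 22401 rows, 296 carried no gene name (285 assembled transcripts, 11 transcript identifiers) and were left out. They held 0.483% to 0.556% of the counts.

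Low-count genes were removed with filterByExpr in R 4.3.3, and the others were scaled by TMM and compared with edgeR 4.0.16 (quasi-likelihood test, Benjamini-Hochberg adjustment over 12288 genes). An SE is the log2 fold change divided by the square root of F. The chi-square per gene between 2 libraries was 5.21 to 7.85 within groups, above counting noise, and 302 to 332 across them. Equally numbered libraries deviated together by correlations of only −0.015, 0.017 and 0.010, so no pairing was used. Alternatives used limma 3.58.1 (voom), DESeq2 1.42.0, other scalings and filters, the replicate number as a block and 1 library left out at a time. Tests were checked on simulated counts in which 200 of 12288 genes changed, far fewer than in these data. There edgeR found 88 of 99 genes changed by 1 on the log2 scale, with 10 false among 195 calls. That setting cannot check the scaling or the calls where most genes change.

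Exon lengths, overlaps and shared windows came from GENCODE M21 (GRCm38), which holds all 9 members, and no coordinates were moved between builds. The members and lists were chosen with earlier results of these data known. The rule for named genes takes all members, up to 4 genes per direction with the smallest p in each list, and the 3 nearest profiles of members with an absolute log2 fold change over 1. Some genes that this rule names are not reported here. The lists were written from general knowledge and described by counts and medians.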

Additional observations from a re-analysis of the deposited data

How the results depend on the processing

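Over 14 other settings and 2 more added after the data were seen (rows without a gene name kept, and counts halved in case both mates of a pair were counted), Usp18, Socs2, Socs3, Socs4, Socs7 and Cish kept their direction and their call. All other changes of a member came with scaling by total counts: Socs5 turned to 0.025, and Socs1 and Socs6 lost their call at −0.35 and −0.03. That scaling left 2 members lower, and it moved the lower genes to 5 in the receptor, kinase and STAT list, 3 among other inhibitors, 3 among ligase partners, 7 among STAT targets (8 higher) and 1 among receptors. It also moved the share of higher genes among those called from 50.3% to 62.9%. The cause was not tested. With at least 10 counts required in every library, 4 other SOCS box genes were lower and 8 higher. The main filter gave 7 and 7. Asb2 and Asb16, lower under the main filter, were not tested there, which does not account for the whole change. With the replicate number as a block, 4802 genes were higher and 4722 lower, against 4908 and 4841 without it, and no call of a member changed. Of the 44 shares recomputed with another gene length, 40 moved by more than 1 SD, with Socs4 and Socs7 together at 24.3% to 25.6% in DMSO and 49.1% to 50.8% after P3FI-90 by the longest transcript. Depth limits Usp18 in DMSO most, with 13 to 19 reads per library. Intervals cover the spread between libraries under the model.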

Other observations

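Some genes upstream of these inhibitors had few reads and are given as counts. Of these, Lepr passed the filter and is among the receptors called higher, and the others were too low for the test. Ifnb1, which encodes interferon beta, had 0 counts in each DMSO library and 8, 15 and 6 after P3FI-90, and Ifna1, Ifna2, Ifna4, Ifna5 and Ifng were at 0 in every library. Lepr, the leptin receptor on which SOCS3 is known to act, had 0 counts in each DMSO library and 24, 27 and 19 after P3FI-90, a difference that rests on few reads. Il2rg, the common receptor chain for several interleukins, had 4, 5 and 0 counts in DMSO and 8, 10 and 38 after P3FI-90, most of them in the third P3FI-90 library.

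Genes with exactly 2 counts outnumbered those with 1 in every library, for example 311 against 81 in the first DMSO library. Counting of both mates was not tested as the source of this. With counts halved, the number of members higher and lower was again 4 and 5.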
